A study of Mus musculus with 4 samples.

Results

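Transcripts of 10 genes that govern where a CD4 T cell goes and whether it stays there were examined in resting CD4 T cells from mouse spleen. The genes were taken by name, each through its probe set of highest mean. They are the sphingosine 1-phosphate receptor genes S1pr1 and S1pr4, the retention gene Cd69, the adhesion genes Cd44 and Selplg, and the integrin chains Itga4, Itgb7, Itgb1, Itgal and Itgb2. All 10 were measured, each by 1 probe set that names no other gene, among 19937 genes in all on the array. Cells came from Ifitm-/- mice (2 arrays), in which the whole family of interferon-inducible transmembrane genes is deleted, and from WT mice (2 arrays). The cells were fresh, from adult mice of 6 to 8 weeks, and the study describes the deletion, which it calls IfitmF-/-, as on a C57BL/6 background. The cells were enriched by removing other cell types with antibodies after red cells were lysed. The labels call them naive in the sense of resting and describe no gate that would remove memory cells. The study pooled cells of 2 mice for each array. The deletion was present throughout the animal, not in T cells alone. All changes are given as Ifitm-/- minus WT on the log2 scale. Adjusted p values are limma's with Benjamini-Hochberg adjustment over all 34760 probe sets, and a gene was called at an adjusted p under 0.05.

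A T cell leaves lymphoid tissue by following sphingosine 1-phosphate, a lipid that is abundant in blood and lymph and scarce within the organ. S1PR1 senses this gradient, and the activation antigen CD69 binds S1PR1 and takes it off the cell surface, so that recently stimulated cells are held back. Entry and adhesion rest on other molecules. PSGL-1, encoded by Selplg, carries the sugars that selectins bind. CD44 binds the matrix sugar hyaluronan and is abundant on memory T cells. Integrins are made of an alpha and a beta chain, and the chains studied here form LFA-1 (Itgal with Itgb2), VLA-4 (Itga4 with Itgb1) and the gut-homing integrin of Itga4 with Itgb7.

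The arrays were first checked against their labels. Ifitm3, a deleted gene, was at log2 4.61 and 4.36 on the Ifitm-/- arrays and at 9.26 and 8.91 on the WT arrays. The correlation over all probe sets was 0.991 between the Ifitm-/- arrays, 0.993 between the WT arrays and 0.976 to 0.979 between genotypes. Xist, which is expressed in female cells, was at 4.86 and 4.43 on the Ifitm-/- arrays and at 11.32 and 11.25 on the WT arrays, whereas the Y-linked Eif2s3y was at 9.48 and 9.61 on the Ifitm-/- arrays and at 3.90 and 4.05 on the WT arrays. Sex and genotype therefore cannot be told apart in any comparison below. The T cell receptor gene Cd3e was at 12.14 and 12.07 in Ifitm-/- and at 12.08 and 12.15 in WT cells, and Cd4, chosen after its value was seen, at 11.79 and 11.71 in Ifitm-/- and at 11.44 and 11.52 in WT cells, so both were present on every array. Of the 9 measured CD4 T cell markers, 3 were nonetheless called higher, 1 was called lower and 5 were not called, with a median change of 0.28. Over all genes 8.57% were called, and 20.8% of those at least as bright as the dimmest of the 10. Only 2 arrays per genotype were made, which limits the precision, and leaving out any array ended every call, for these genes and for all other probe sets, although 6062 to 9107 probe sets then had an unadjusted p under 0.05.

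Of the 10 genes, 3 were called: S1pr4 was higher and Cd69 and Cd44 were lower in Ifitm-/- cells. Over all genes 8.57% were called, 4.96% higher and 3.61% lower, and over all probe sets 8.43%. Among the 1995 genes at least as bright as the dimmest of the 10, 20.8% were called, so a count of 3 in 10 is close to that of other bright genes. The median change of the 10 genes was 0.064, and that of all genes was -0.020. The genotypes did not overlap for 8 of the 10 genes, 4 higher and 4 lower in Ifitm-/- cells. This separation was common on these arrays, at 58.7% of all genes and 81.2% of those as bright. The 3 called genes changed less than 2-fold, so 0 of the 10 passed the stricter criterion of the study's methods as applied here. That criterion asks for a change over 2-fold, and 1.28% of all genes (256) passed it. The study's own list of genes of interest, drawn from its differentially expressed genes, nonetheless includes S1pr4, which was 1.72-fold higher here. The source of this difference was not tested.

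**Figure D1:**
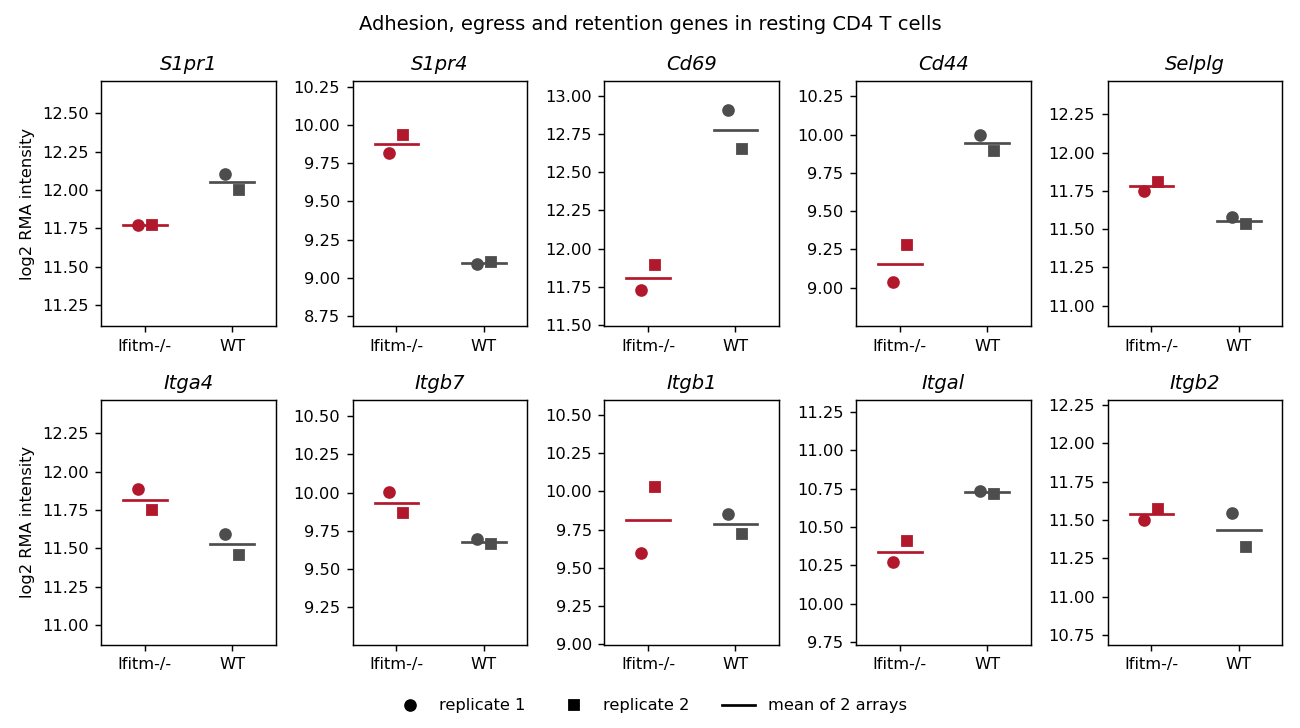
Log2 RMA intensity (y axis) of each gene on the Ifitm-/- arrays (red, left) and the WT arrays (grey, right); circles are replicate 1, squares replicate 2 and lines the mean, and every panel spans the same range of log2 units. S1pr4 lies higher and Cd69 and Cd44 lie lower on both Ifitm-/- arrays, while the arrays of the genotypes overlap for Itgb1 and Itgb2.

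Of the sphingosine 1-phosphate receptor genes, S1pr4 was called and S1pr1 was not. S1pr4, a receptor largely restricted to blood cells and best known for its part in lymphocyte and dendritic cell function, had log2 intensities of 9.82 and 9.94 on the Ifitm-/- arrays, against 9.09 and 9.10 on the WT arrays. Both Ifitm-/- arrays lay above both WT arrays by at least 0.72. The change was 0.78 (95% interval 0.55 to 1.01), a 1.72-fold rise (adjusted p = 0.0213).

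S1pr1, the main egress receptor of T cells, was at 11.77 and 11.77 on the Ifitm-/- arrays and at 12.11 and 12.00 on the WT arrays. The Ifitm-/- arrays were both below the WT arrays, by a smaller distance than for S1pr4 and in the other direction. The change of -0.28 (95% interval -0.51 to -0.059) was not called (adjusted p = 0.126). It passed in 1 of 7 other settings of the unpaired limma fit, the one whose prior follows the intensity (adjusted p = 0.0463).

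Cd69, the retention gene, encodes a C-type lectin that appears on the T cell surface soon after stimulation. It was at 11.73 and 11.89 on the Ifitm-/- arrays and at 12.90 and 12.65 on the WT arrays. These are 3399 and 3802 linear units in Ifitm-/- cells, against 7660 and 6442 in WT cells. Both Ifitm-/- arrays lay below both WT arrays. The change was -0.97 (95% interval -1.30 to -0.63), so Cd69 was 1.95-fold lower in Ifitm-/- cells (adjusted p = 0.0281).

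Immediate early genes, which like Cd69 respond to a stimulus within a short time, were also among those that fell. Of 26 in the list, which was chosen with earlier results of these arrays known, 13 fell and 0 rose. Over all genes 3.61% were called lower and 4.96% higher. The mean log2 level of the list was 9.12 and 9.12 on the Ifitm-/- arrays and 10.29 and 10.12 on the WT arrays. Nr4a3, a nuclear receptor gene induced by T cell receptor signals, was at 7.67 and 7.82 in Ifitm-/- and at 11.13 and 11.01 in WT cells (adjusted p = 0.00778). The AP-1 gene Fosb fell by 2.47 and the phosphatase gene Dusp4 fell by 2.31 (adjusted p = 0.00778 for both). Other members of the list did not pass, among them Fos with a change of -0.039 (adjusted p = 0.931) and Egr1 with -0.43 (adjusted p = 0.243), both chosen after their values were seen. The part of these genes in the lower level of Cd69 was not tested.

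Cd44 had log2 intensities of 9.03 and 9.28 on the Ifitm-/- arrays and of 9.995 and 9.89 on the WT arrays. The genotypes were separated by 0.62 at their nearest arrays, although the Ifitm-/- arrays differed from each other by more than the WT arrays did (SD 0.17 and 0.072, n = 2 each). The change was -0.79 (95% interval -1.10 to -0.48), a 1.73-fold lower level in Ifitm-/- cells (adjusted p = 0.0345). Since the preparations could hold naive and memory cells and RNA was measured in bulk, fewer cells with much Cd44 and less Cd44 RNA per cell cannot be told apart.

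Other transcripts of memory and effector T cells changed in both directions. Of 16 measured, 2 rose and 2 fell, with a median change of -0.059. Over all genes 4.96% were called higher and 3.61% lower. Among genes as bright as the dimmest of the 10, 20.8% were called in either direction. The costimulatory gene Icos fell by 1.25 (9.73 and 9.95 in Ifitm-/- and 11.04 and 11.15 in WT cells; adjusted p = 0.0163) and the IL-2 receptor chain Il2rb fell by 0.76 (adjusted p = 0.0240). The chemokine receptor gene Ccr2 rose by 1.03 (7.96 and 7.81 in Ifitm-/- and 6.96 and 6.77 in WT cells; adjusted p = 0.0212), and the chemokine receptor gene Cxcr6, chosen after its value was seen, rose by 0.85. Of 10 naive T cell genes, Dapl1 rose by 0.91 (adjusted p = 0.0225) and the IL-7 receptor gene Il7r by 0.46 (adjusted p = 0.0472). Ccr7, the receptor that guides T cells into lymph nodes, fell by 0.87 (12.14 and 12.14 in Ifitm-/- and 12.99 and 13.03 in WT cells; adjusted p = 0.0161). The median change of the naive list was -0.0015, and its 2 rises and 1 fall stand beside the same shares.

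Selplg, the PSGL-1 gene, was at 11.75 and 11.81 on the Ifitm-/- arrays and at 11.58 and 11.53 on the WT arrays. The Ifitm-/- arrays were the higher ones, without overlap. The change of 0.22 (95% interval 0.011 to 0.44) was not called (adjusted p = 0.173).

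RefSeq promoter sequences (GRCm38.p6) matched 5 of the 10 genes. The 250 bases before the start are shown for both called genes among them and for Itga4 and Itgb7, the chains of the gut-homing integrin, which had changes of similar size (0.29 and 0.25). Each runs 5′ to 3′ on the gene's strand, and capitals mark CCACCC, a box bound by Krüppel-like factors such as KLF2, on either strand and therefore GGGTGG where it lies on the opposite one.
S1pr4 (chr10:81500138-81500387, minus strand): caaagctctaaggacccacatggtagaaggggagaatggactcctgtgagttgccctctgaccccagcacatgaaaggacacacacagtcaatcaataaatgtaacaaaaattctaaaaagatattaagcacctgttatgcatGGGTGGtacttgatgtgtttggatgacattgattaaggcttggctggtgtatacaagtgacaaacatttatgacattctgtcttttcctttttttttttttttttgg
Cd44 (chr2:102901666-102901915, minus strand): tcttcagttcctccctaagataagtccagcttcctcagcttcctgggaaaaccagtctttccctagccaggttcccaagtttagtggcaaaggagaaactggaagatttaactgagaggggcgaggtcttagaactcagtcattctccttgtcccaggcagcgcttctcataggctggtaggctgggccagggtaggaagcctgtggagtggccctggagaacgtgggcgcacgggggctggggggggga
Itga4 (chr2:79255176-79255425, plus strand): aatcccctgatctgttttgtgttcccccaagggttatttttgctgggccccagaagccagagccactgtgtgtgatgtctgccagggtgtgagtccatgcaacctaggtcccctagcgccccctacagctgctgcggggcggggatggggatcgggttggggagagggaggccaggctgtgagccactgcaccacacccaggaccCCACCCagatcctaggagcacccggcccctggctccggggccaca
Itgb7 (chr15:102231936-102232185, minus strand): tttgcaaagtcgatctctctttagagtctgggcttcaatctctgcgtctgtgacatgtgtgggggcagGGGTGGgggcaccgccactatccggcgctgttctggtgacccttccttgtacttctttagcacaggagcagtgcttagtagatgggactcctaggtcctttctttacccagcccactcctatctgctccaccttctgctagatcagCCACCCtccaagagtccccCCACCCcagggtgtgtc

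The windows differed in composition and in motif content. The S1pr4 window held 38.8% G and C and the Cd44 window 56.4%, beside a median of 52.4% over the 32851 promoters in the table. CCACCC occurred 1 time before S1pr4, 1 time before Itga4 and 3 times before Itgb7, and was not found before Cd44; 28.1% of all promoter windows held it on either strand. The GC box GGGCGG (32.7% of windows) was found 1 time before Itga4, apart from the CCACCC there. The AP-1 motif TGANTCA (6.75% of windows), the cyclic AMP response core TGACG (17.8%), the ETS core CCGGAA (12.0%) and a kappaB motif (7.25%) were not found in these 4 windows. In the window of Itgb1, the matched gene not shown, TGACG and GGGCGG each occurred 1 time. The other motifs were not found there. All motifs were sought on both strands, and a match describes letters only.

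Of the 5 integrin chains 0 were called by limma, with 3 at an unadjusted p under 0.05 (Itga4, Itgb7 and Itgal), a level that 25.8% of all genes and 48.8% of those as bright reached. Itga4, the alpha chain of VLA-4 and of the gut-homing integrin, was at 11.89 and 11.75 on the Ifitm-/- arrays and at 11.59 and 11.46 on the WT arrays. Its change was 0.29 (95% interval 0.023 to 0.56; adjusted p = 0.164). Itgb7, the gut-homing beta chain, was at 1024 and 935 linear units on the Ifitm-/- arrays and at 828 and 813 linear units on the WT arrays, with a log2 change of 0.25 (95% interval 0.017 to 0.49; adjusted p = 0.167). For both chains the Ifitm-/- arrays were the higher ones and did not overlap with WT. Neither passed in any of the 7 other settings.

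Itgal, the alpha chain of LFA-1, which binds ICAM-1 on other cells, was at 10.27 and 10.41 on the Ifitm-/- arrays and at 10.74 and 10.72 on the WT arrays. Both Ifitm-/- arrays lay below both WT arrays by at least 0.31. The change of -0.39 (95% interval -0.62 to -0.15) missed the threshold (adjusted p = 0.0771), but passed it in 3 of the 7 other settings, over which the adjusted p ran from 0.0394 to 0.105. Its partner Itgb2, the beta chain shared by the leukocyte integrins, was at 11.50 and 11.57 on the Ifitm-/- arrays and at 11.55 and 11.32 on the WT arrays. The genotypes overlapped for Itgb2, and its change was 0.10 (95% interval -0.19 to 0.40; adjusted p = 0.613).

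Itgb1, the beta chain of VLA-4, varied more between the Ifitm-/- arrays than between genotypes. It was at 9.60 and 10.03 on the Ifitm-/- arrays and at 9.85 and 9.72 on the WT arrays (SD 0.30 and 0.090, n = 2 each). The WT values lay between the Ifitm-/- values. The change was 0.026 (95% interval -0.43 to 0.48; adjusted p = 0.943), and its sign turned when Ifitm-/- replicate 2 was left out (-0.19) or WT replicate 2 was (-0.038). Platelets are rich in this chain, and platelet markers were also highest on Ifitm-/- replicate 2. The 5 measured markers had a mean log2 level of 8.62 and 9.78 on the Ifitm-/- arrays and of 8.50 and 8.10 on the WT arrays. The platelet chemokine gene Ppbp was at 11.80 and 12.90 on the Ifitm-/- arrays and at 11.38 and 10.67 on the WT arrays. On Ifitm-/- replicate 1, where Itgb1 was lowest, the mean level of the platelet markers was above both WT arrays. The 10 myeloid markers were also highest on Ifitm-/- replicate 2. Their mean log2 level was 8.64 and 9.54 on the Ifitm-/- arrays and 9.36 and 8.65 on the WT arrays. The part of either marker list in the Itgb1 values was not tested.

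**Figure D2:**
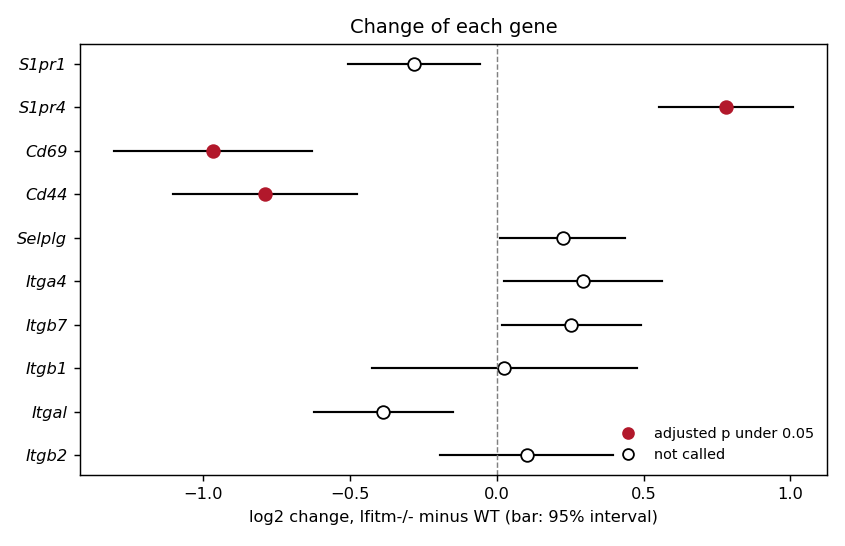
Log2 change (x axis, Ifitm-/- minus WT) of each gene with its 95% interval; filled points passed an adjusted p under 0.05. S1pr4 lies to the right of 0 at 0.78, Cd69 and Cd44 lie to the left at -0.97 and -0.79, and the intervals of Itgb1 and Itgb2 span 0.

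Differences between genes of a functional pair were then taken within each array, which removes any factor that scales a whole array. Such a difference depends on the probes of both genes, so only its shift between genotypes can be read, and with 2 against 2 arrays no exact permutation test could go below p = 0.333, so none was run. The difference S1pr1 minus S1pr4 was 1.95 and 1.83 on the Ifitm-/- arrays and 3.02 and 2.90 on the WT arrays, a shift of -1.07. This was the largest shift of the 5 differences taken. S1pr1 minus Cd69 was 0.040 and -0.12 on the Ifitm-/- arrays and -0.80 and -0.65 on the WT arrays, a shift of 0.68.

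For the chains of LFA-1, Itgal minus Itgb2 was -1.23 and -1.17 on the Ifitm-/- arrays and -0.81 and -0.61 on the WT arrays, a shift of -0.49 without overlap. Itga4 minus Itgb7 was 1.89 and 1.88 on the Ifitm-/- arrays and 1.90 and 1.79 on the WT arrays, so the shift of 0.038 was smaller than the distance between the WT arrays. Itga4 minus Itgb1 was 2.29 and 1.72 on the Ifitm-/- arrays and 1.75 and 1.73 on the WT arrays, and its shift of 0.27 rested on Ifitm-/- replicate 1, without which it was -0.015.

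**Figure D3:**
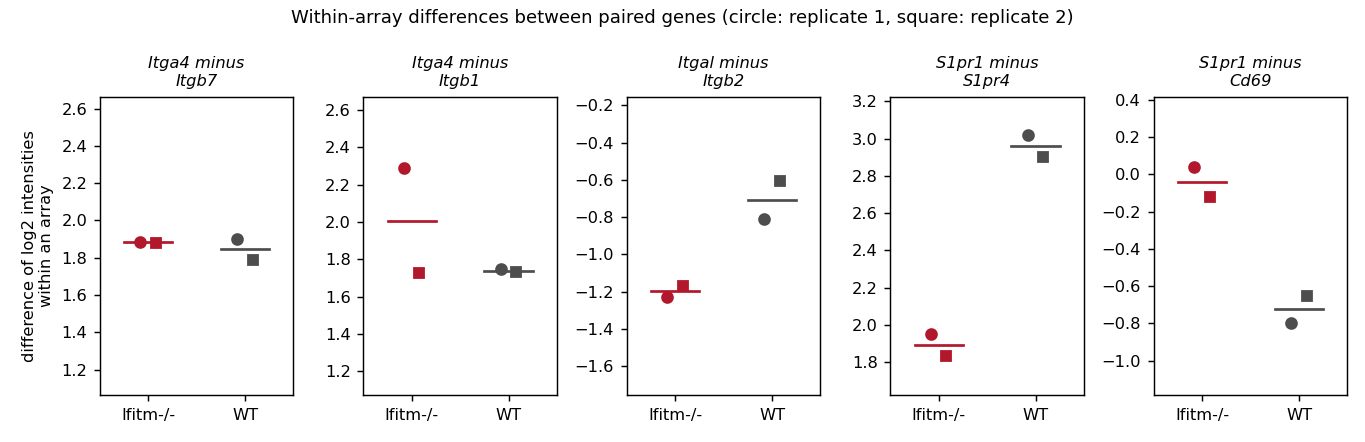
Difference of log2 RMA intensities (y axis) between the genes of a pair within each array, for Ifitm-/- (red, left) and WT (grey, right); lines are means and every panel spans the same range. S1pr1 minus S1pr4 shifts by -1.07 and Itgal minus Itgb2 by -0.49 without overlap, while the arrays overlap for Itga4 minus Itgb7 and Itga4 minus Itgb1.

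Further genes of egress and adhesion were described in 6 lists, chosen with earlier results of these arrays known. Together they held 104 measured genes, of which 11 rose and 6 fell (16.3%, beside 8.57% of all genes). Of the 44 as bright as the dimmest of the 10 genes, 22.7% were called, close to the 20.8% of all genes that bright. Of 18 genes of the sphingosine 1-phosphate axis, 1 rose and 1 fell, with a median change of 0.067. Gna13, a G protein chain through which receptors of this lipid act on the cytoskeleton, fell by 0.69 (10.95 and 10.83 in Ifitm-/- and 11.56 and 11.59 in WT cells; adjusted p = 0.0265). Sphk2, a kinase that makes sphingosine 1-phosphate, rose by 0.47 (7.93 and 7.85 in Ifitm-/- and 7.46 and 7.39 in WT cells; adjusted p = 0.0469). The phosphatase gene Sgpp1, which reverses that step, had a change of 0.38 (adjusted p = 0.0701). Among the other receptors of the lipid, chosen after their values were seen, S1pr2 had a change of -0.11 (adjusted p = 0.489), S1pr3 of -0.39 (adjusted p = 0.160) and S1pr5 of 0.015 (adjusted p = 0.947). S1pr3 was at 6.01 and 5.94 in Ifitm-/- and at 6.52 and 6.21 in WT cells. S1pr5 was at 6.53 and 6.32 in Ifitm-/- and at 6.41 and 6.42 in WT cells. Both lay near the median of all probe sets, 6.26. Klf2, which drives S1pr1 transcription, was likewise chosen afterwards and had a change of -0.44 (9.95 and 9.88 in Ifitm-/- and 10.46 and 10.24 in WT cells; adjusted p = 0.0908).

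Of 15 other integrin chains, 1 fell and 0 rose. This was Itgav, the alpha chain of vitronectin receptors, at 8.49 and 8.53 in Ifitm-/- and 8.98 and 9.10 in WT cells (a change of -0.53; adjusted p = 0.0411). Itga3, a laminin receptor chain, had a change of -0.34 (adjusted p = 0.129). It was dim, at 5.81 and 5.90 in Ifitm-/- and at 6.11 and 6.29 in WT cells, near the median of all probe sets (6.26). Itgb3, a platelet integrin chain, had a change of 0.60 (9.31 and 9.72 in Ifitm-/- and 9.12 and 8.70 in WT cells; adjusted p = 0.170), and it was highest on the array on which Itgb1 was highest. On Ifitm-/- replicate 1, where Itgb1 was lowest, Itgb3 was above both WT arrays.

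Of 26 genes that regulate integrin activation, 3 rose and 1 fell, with a median change of 0.12. Apbb1ip, the gene of the adaptor RIAM that brings talin to integrins, rose by 0.76 (10.51 and 10.58 in Ifitm-/- and 9.84 and 9.73 in WT cells; adjusted p = 0.0231). The GTPase gene Rhoh rose by 0.61 (adjusted p = 0.0328) and Rasgrp1, which activates Ras after T cell receptor signals, by 0.44 (adjusted p = 0.0460). Cytip, whose product binds the cytohesin that regulates LFA-1, fell by 0.43 and barely passed (adjusted p = 0.0497); it was chosen after its value was seen.

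Surface ligands and co-adhesion molecules held 4 rises and 1 fall in 16 genes, and their median change was 0.22. Cd48, a ligand of CD2, rose by 1.09 (10.40 and 10.32 in Ifitm-/- and 9.47 and 9.08 in WT cells; adjusted p = 0.0321). Cd226, a receptor that also associates with LFA-1, rose by 1.18 (9.72 and 9.86 in Ifitm-/- and 8.84 and 8.39 in WT cells; adjusted p = 0.0349). Jaml, a junctional adhesion molecule, fell by 0.64 (adjusted p = 0.0303). The remaining rises, named after their values were seen, were of Spn, which encodes CD43, by 0.68 (adjusted p = 0.0418) and of Icam2, an LFA-1 ligand, by 0.51 (adjusted p = 0.0470). Icam1, the main LFA-1 ligand and also chosen afterwards, had a change of -0.28 (adjusted p = 0.292).

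Enzymes that build the glycans of PSGL-1 and CD44 or make hyaluronan held 2 rises and 1 fall in 19 genes. St3gal1, which caps core O-glycans with sialic acid, rose by 0.69 (10.04 and 10.11 in Ifitm-/- and 9.46 and 9.33 in WT cells; adjusted p = 0.0290), and C1galt1, which makes the core structure, by 0.60 (9.98 and 9.99 in Ifitm-/- and 9.46 and 9.30 in WT cells; adjusted p = 0.0379). Mgat5, which branches N-glycans, fell by 0.56 (8.25 and 8.31 in Ifitm-/- and 8.87 and 8.81 in WT cells; adjusted p = 0.0331). Of 10 linkers between membrane and cell cortex, Ezr, which tethers CD44 and PSGL-1 to actin, fell by 0.75 (10.63 and 10.46 in Ifitm-/- and 11.22 and 11.37 in WT cells; adjusted p = 0.0324). Wipf1, a partner of the Wiskott-Aldrich syndrome protein, rose by 0.57 (adjusted p = 0.0428), and Coro1a, needed for T cell egress, had a change of 0.37 (adjusted p = 0.101).

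**Figure D4:**
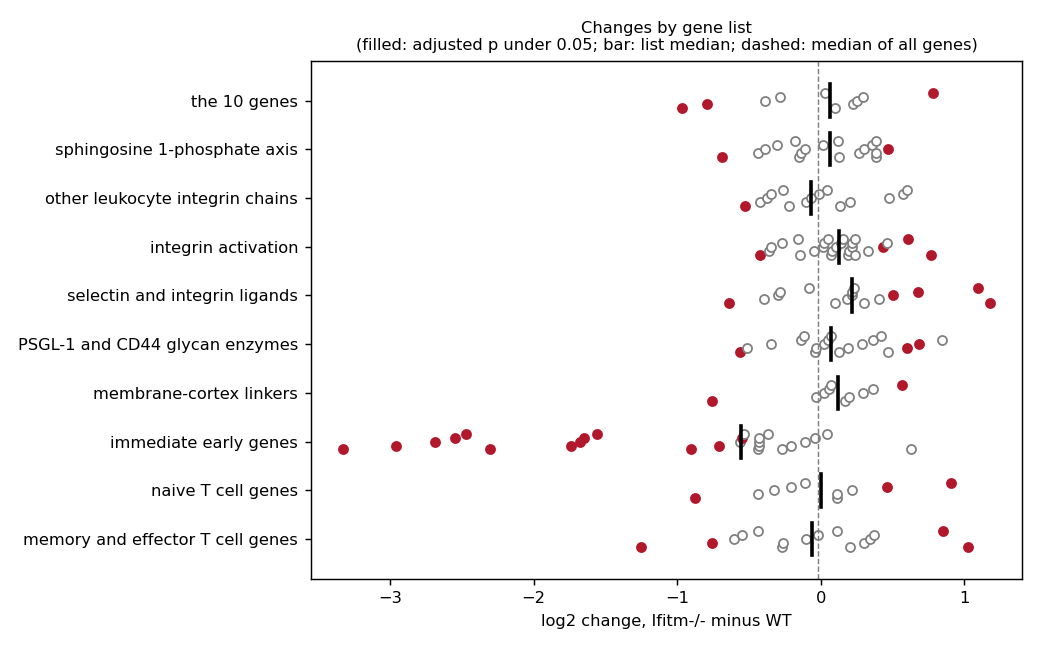
Log2 changes (x axis, Ifitm-/- minus WT) of the 10 genes and of the members of 9 other lists; each circle is a gene, filled at an adjusted p under 0.05, with the list's median as a black bar and the median of all genes as a dashed line. The immediate early genes reach furthest to the left, with a median of -0.56, and the adhesion lists have medians of -0.069 to 0.22.

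The CD4 T cell markers were at a mean log2 level of 11.33 and 11.28 on the Ifitm-/- arrays and of 11.04 and 11.08 on the WT arrays. They held more calls than any other marker list, but were also the brightest of these lists, and bright genes were called more often. The T cell receptor complex gene Cd3g rose by 0.59 (12.22 and 12.29 in Ifitm-/- and 11.65 and 11.69 in WT cells; adjusted p = 0.0304). The other calls, named after their values were seen, were rises of Cd3d by 0.59 (adjusted p = 0.0284) and of Themis, a T cell signalling gene, by 0.94 (adjusted p = 0.0180), while the costimulatory receptor gene Cd28 fell by 0.74 (adjusted p = 0.0202).

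Markers of other cells differed between arrays, and several of the 10 genes are also expressed in those cells. The 9 measured B cell markers had a mean log2 level of 7.54 and 7.92 on the Ifitm-/- arrays and of 9.16 and 7.62 on the WT arrays, so WT replicate 1 stood apart. Cd74, a B cell and antigen-presenting cell gene, was at 9.92 and 10.76 on the Ifitm-/- arrays and at 12.04 and 10.65 on the WT arrays. The 4 plasma cell markers were at 7.41 and 7.40 on the Ifitm-/- arrays and at 8.37 and 7.92 on the WT arrays. The 10 myeloid markers were at 8.64 and 9.54 on the Ifitm-/- arrays and at 9.36 and 8.65 on the WT arrays, with the highest level on Ifitm-/- replicate 2. The 4 erythroid markers were at 10.18 and 10.03 on the Ifitm-/- arrays and at 8.30 and 9.53 on the WT arrays. Of the B cell, plasma cell, myeloid, erythroid and platelet markers 0 were called by limma, whereas 4 plasma cell markers and 1 each of the myeloid, erythroid and platelet lists had an unadjusted p under 0.05. In addition, 1 of 7 neutrophil markers, Retnlg, was higher and 1 of 7 NK cell markers, Eomes, was lower, both named after their values were seen. The shares called over all genes were 4.96% higher and 3.61% lower. The neutrophil list was at 5.45 and 5.57 on the Ifitm-/- arrays and at 5.02 and 4.98 on the WT arrays. These levels were below the median of all probe sets, 6.26. Of its 7 markers, 6 were higher without overlap, a separation seen in either direction at 58.7% of all genes. The 2 CD8 T cell markers were at 7.21 and 7.24 on the Ifitm-/- arrays and at 7.68 and 7.14 on the WT arrays. The NK cell list did not fall as a whole, with a median change of 0.18. In limma 3 of its markers were higher and 1 was lower at an unadjusted p under 0.05. Its mean log2 level was 7.62 and 7.365 on the Ifitm-/- arrays and 7.47 and 7.08 on the WT arrays. The part of these markers and of the CD4 T cell markers in the results was not tested.

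Without WT replicate 1 the changes were -0.84 for Cd69, -0.74 for Cd44 and 0.78 for S1pr4, beside -0.97, -0.79 and 0.78 with it. Over all choices of the array left out, the changes ran from -1.09 to -0.84 for Cd69, from -0.91 to -0.67 for Cd44 and from 0.72 to 0.84 for S1pr4. Each kept its sign, with unadjusted p values of 0.0027 to 0.00694 for Cd69, 0.00208 to 0.0152 for Cd44 and 0.00191 to 0.00622 for S1pr4, while the adjusted p values in limma were 0.0901 to 0.138 for Cd69, 0.0781 to 0.180 for Cd44 and 0.0705 to 0.138 for S1pr4.

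**Figure D5:**
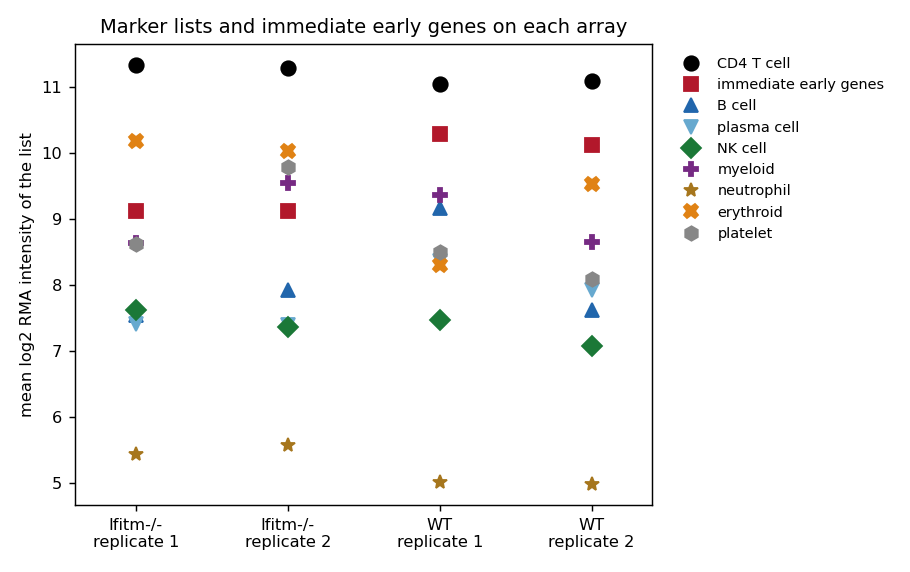
Mean log2 RMA intensity (y axis) of marker lists and of the immediate early genes on each of the 4 arrays (x axis); levels of different lists are not comparable, only the arrays within a list. B cell markers are highest on WT replicate 1 (9.16), platelet markers on Ifitm-/- replicate 2 (9.78), and the immediate early genes lie lower on both Ifitm-/- arrays (9.12 and 9.12) than on the WT arrays (10.29 and 10.12).

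The genes whose levels over the 4 arrays were most like those of S1pr4 and Cd69, the members of smallest p in each direction, were sought among 9959 other genes of at least median brightness. Likeness was the distance between log2 values after each gene was centred on its own mean, so it describes 4 points and carries no test. Nearest to S1pr4 were Zfp322a (distance 0.0078), Cbr1 (0.032) and Ormdl1 (0.036). Zfp322a was at 6.95 and 7.07 in Ifitm-/- and at 6.23 and 6.24 in WT cells (adjusted p = 0.0218). Cbr1 was at 8.08 and 8.20 in Ifitm-/- and at 7.38 and 7.35 in WT cells (adjusted p = 0.0223). Ormdl1, which restrains the synthesis of sphingolipids, was at 8.03 and 8.12 in Ifitm-/- and at 7.28 and 7.26 in WT cells (adjusted p = 0.0197). A link between Ormdl1 and S1pr4 was not tested. Nearest to Cd69 were Ccrl2 (0.076), a receptor that binds chemerin, Nkg7 (0.079), a gene of cytotoxic granules, and the heat shock gene Hsph1 (0.090). Nkg7 was at 9.58 and 9.75 in Ifitm-/- and at 10.67 and 10.43 in WT cells (adjusted p = 0.0321).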

How the data were processed

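RNA of CD4 T cells was measured on 4 arrays (Affymetrix Mouse Gene 1.0 ST). The deposited values are RMA intensities on the linear scale, which the authors made with affy, per the submitters' processing notes (background correction, quantile normalization, probe set summary); its version and genome build are not given in the sources used here. Shifts shared by all genes are lost in quantile normalization. Median intensity was 75.9 and 74.8 on the Ifitm-/- arrays and 77.1 and 78.1 on the WT arrays. On log2 intensities, limma (version 3.58.1, R version 4.3.3) fitted genotype alone with lmFit, followed by eBayes (2 residual and 2.39 prior degrees of freedom) over 34760 probe sets. The methods' own filter, a fold change over 2 together with a range over the arrays of 250 units or more, was a further criterion. The platform annotation named 1 gene for 21640 probe sets, and the one of highest mean stood for a gene; listed genes without one were not analysed here. The fitting steps were tested on simulated data. With 3000 of 34760 features changed, 46.7% of log2 changes of 0.5 and 79.9% of those of 1 were recovered, with 124 false calls. With 200 changed, 0% and 32% were recovered, with 4 false calls. A change that was not called is therefore not shown to be absent.

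The members and lists were chosen with earlier results of these data known. Named genes were the 10 members, the 3 of smallest p in each list, the label checks, the 2 brightest markers of a list and the genes most like a member; others are marked as chosen later. The labels call the replicates independent, but do not tie numbers across genotypes. Alternatives were other eBayes priors, scalings, filters, a pseudocount of 16, a replicate block, the methods' t-test and leaving out each array.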

Additional observations from a re-analysis of the deposited data

How the results depend on the processing

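With 2 arrays per genotype, leaving out any array gave 0 calls among all probe sets, 0 among the 10 genes and 0 among the 155 genes of the 9 pathway lists, against 2930, 3 and 37 with all arrays; by construction these fits have 1 residual degree of freedom less, the lone array is assumed to vary like the others, and 6062 to 9107 probe sets and 3 to 6 of the 10 genes had an unadjusted p under 0.05. The replicate block gave 0, 0 and 0 calls (8016 probe sets and 6 of the 10 genes at an unadjusted p under 0.05). The labels do not say that a number marks a shared preparation, and the replicate differences of the genotypes correlated at -0.12. A crossed pairing, added after the data were seen, gave 975, 1 and 14 calls. The methods' t-test gave 6811, 6 and 57 calls unadjusted and 4, 0 and 0 after Benjamini-Hochberg adjustment. Asking in addition for a fold over 2 and a range of 250 units or more left 403 probe sets and 0 of the 10 genes. An eBayes trend called 5 of the 10 genes, with S1pr1 and Itgal added, and fits without dim probe sets or on probe sets of 1 gene called 4, with Itgal added. Robust eBayes, renewed quantile normalization, median centring and a pseudocount of 16 called 3. S1pr4, Cd69 and Cd44 were called in all of these 7 settings. With an array left out, signs turned for Itgb1 without Ifitm-/- replicate 2 or WT replicate 2 (-0.038; range -0.19 to 0.24), for Itgb2 without WT replicate 2 (range -0.010 to 0.21), for Itga4 minus Itgb7 without WT replicate 2 (range -0.018 to 0.095) and for Itga4 minus Itgb1 without Ifitm-/- replicate 1 (range -0.015 to 0.55). Each gene had 1 probe set, so other probe sets could not be tried. The median change over all genes was -0.020, 0.023 with median centring and -0.012 with renewed quantile normalization.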
